A study of Mus musculus with 6 samples.

Results

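The genes described are the nuclear-encoded subunits of oxidative phosphorylation, with 8 assembly factors of complex I that carry the same symbol root. The rule used symbols and no measured value, and took protein-coding genes whose symbol begins with Nduf, Uqcr, Atp5 or Cox followed by 4, 5, 6, 7 or 8, together with Sdha, Sdhb, Sdhc, Sdhd and Cyc1. The rule found 94 of the 51826 genes in the deposited tables: 36 of complex I, 4 of complex II, 9 of complex III, 20 of complex IV, 17 of ATP synthase and the 8 assembly factors. Ndufa4 and Ndufa4l2 were counted with complex IV, where their products sit in spite of the symbol. A second identifier for Atp5o had no row in the tables.

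Messenger RNA was sequenced in cultures of MEFs (mouse embryonic fibroblasts, cells of connective tissue) of the C57BL/6 strain. There were 3 cultures of each genotype. The Lztr1 +/- cultures, called heterozygous, carried the numbers 11, 15 and 18, and the Lztr1 +/+ cultures, called wild-type, the numbers 10, 12 and 16. The Lztr1 protein brings RAS-family proteins to a CUL3 ubiquitin ligase. All 6 were grown on plastic in DMEM with glutamine, within the same range of early passages. How the Lztr1 allele was altered is not stated in the labels. They also do not say whether each numbered culture came from its own embryo. The variation behind every p, that among the 3 cultures of a genotype, may therefore be technical in part. The fitted tests estimate this variation partly across genes.

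Oxidative phosphorylation is carried out in the inner mitochondrial membrane. Complexes I and II pass electrons from NADH and succinate to ubiquinone, complex III passes them to cytochrome c, complex IV reduces oxygen, and ATP synthase uses the resulting proton gradient to make ATP. Most subunits are encoded in the nucleus and imported, while a small core of complexes I, III and IV and of ATP synthase is encoded by mitochondrial DNA, so the complexes are built from the products of both genomes. Fibroblasts use the widely expressed isoforms of complex IV, and several subunits have further isoforms known from muscle, testis or hypoxic lung.

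Library totals lay between 11025286 and 21885101 expected counts, and heterozygous culture 11 was the deepest. Lztr1 itself stood at 35.9, 28.3 and 32.2 TPM (a level scaled for transcript length) in heterozygous cultures 11, 15 and 18, against 64.0, 63.6 and 56.7 TPM in wild-type cultures 10, 12 and 16. Its log2 difference in TMM-scaled counts (CPM) was -1.01 (SE 0.07, adjusted p 0.00457 by edgeR's quasi-likelihood test), with the adjusted p between 0.0616 and 0.0759 when any culture but wild-type culture 16 was left out. The exact two-sided permutation test on its CPM gave p = 0.1, the smallest that 3 against 3 cultures allow. All 10 fibroblast markers were detected in every culture, with summed levels of 10380 to 11660 TPM in heterozygous and 10870 to 12500 TPM in wild-type cultures. Muscle markers were present too, with summed levels of 492.5 to 695.5 TPM in heterozygous and 505.8 to 795.1 TPM in wild-type cultures. Of the 9 muscle markers tested, 8 had a lower mean in heterozygous cultures, with a median log2 difference of -0.235. At an unadjusted p under 0.05 there were 0 by edgeR and 1 by DESeq2. Of the fibroblast markers, Col1a1, Pdgfrb and Dcn (-0.65 on the log2 scale) had a lower mean in heterozygous cultures at an unadjusted p under 0.05 by edgeR. By DESeq2, 6 of the 10 were at that p. Over all genes tested, 12.2% were at that p by edgeR and 8.94% by DESeq2. Summed erythroid markers lay between 246.7 and 504.0 TPM in heterozygous and between 123.9 and 435.5 TPM in wild-type cultures. All 6 erythroid markers tested had a higher mean in heterozygous cultures, with a median log2 difference of 0.609, and 1 was at that p by edgeR. Neural and Schwann markers summed to 121.6 to 164.5 TPM in heterozygous and 77.8 to 127.5 TPM in wild-type cultures, and 2 of the 4 tested had a higher mean at that p. Endothelial markers summed to 21.1 to 29.4 TPM in heterozygous and 25.7 to 27.9 TPM in wild-type cultures, with 1 of 5 higher and 1 lower at that p. Macrophage markers summed to 247.6 to 445.2 TPM in heterozygous and 308.7 to 396.5 TPM in wild-type cultures, and epithelial markers to 92.5 to 235.4 TPM in heterozygous and 105.3 to 169.1 TPM in wild-type cultures, with 0 at that p in either list. A higher mean in heterozygous cultures was seen for 7 of 8 macrophage markers (median 0.156) and 4 of 6 epithelial markers (median 0.082). Of all these markers, 0 were called at an adjusted p of 0.05 by edgeR or DESeq2, and their part in the values below was not tested.

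Promoter sequences are shown for the 3 genes with the smallest p in the genotype comparison and for 3 genes whose windows hold the letters bound by factors known for respiratory-chain promoters. The letters searched were CGCATGCGC for NRF1, CCGGAAG for GABPA and AAGATGGCG for YY1, and they are in capitals where they occur on either strand. Each run covers 250 bases before to 30 after the annotated start, read along the gene's strand from RefSeq on GRCm38.p6. The windows are chr10:128083057-128083336 (+) for Atp5b, chr15:82354262-82354541 (-) for Ndufa6, chr17:24724394-24724673 (-) for Ndufb10, chr5:115348929-115349208 (-) for Cox6a1, chr5:108434370-108434649 (-) for Atp5k and chr16:84834947-84835226 (-) for 1 of the 2 starts listed for Atp5j.
Atp5b: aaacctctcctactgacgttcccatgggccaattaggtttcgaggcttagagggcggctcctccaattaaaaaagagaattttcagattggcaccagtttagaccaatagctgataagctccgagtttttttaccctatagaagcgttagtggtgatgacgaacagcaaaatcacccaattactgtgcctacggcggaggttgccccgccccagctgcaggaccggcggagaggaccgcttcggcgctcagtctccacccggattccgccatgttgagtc
Ndufa6: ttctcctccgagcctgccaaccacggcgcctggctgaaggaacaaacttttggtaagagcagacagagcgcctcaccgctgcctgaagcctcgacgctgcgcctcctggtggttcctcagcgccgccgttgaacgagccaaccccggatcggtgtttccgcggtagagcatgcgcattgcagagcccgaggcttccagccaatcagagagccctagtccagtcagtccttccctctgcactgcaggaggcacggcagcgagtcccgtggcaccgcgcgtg
Ndufb10: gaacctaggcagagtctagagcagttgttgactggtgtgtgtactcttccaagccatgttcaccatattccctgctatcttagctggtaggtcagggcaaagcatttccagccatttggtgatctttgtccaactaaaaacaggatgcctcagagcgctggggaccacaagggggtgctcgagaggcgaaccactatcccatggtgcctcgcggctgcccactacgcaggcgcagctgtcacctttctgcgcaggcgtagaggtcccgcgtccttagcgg
Cox6a1: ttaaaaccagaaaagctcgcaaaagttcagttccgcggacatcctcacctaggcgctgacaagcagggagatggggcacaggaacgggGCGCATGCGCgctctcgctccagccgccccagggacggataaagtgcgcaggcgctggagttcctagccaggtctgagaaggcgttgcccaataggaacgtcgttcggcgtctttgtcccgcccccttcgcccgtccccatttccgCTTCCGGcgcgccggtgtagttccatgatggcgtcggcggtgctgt
Atp5k: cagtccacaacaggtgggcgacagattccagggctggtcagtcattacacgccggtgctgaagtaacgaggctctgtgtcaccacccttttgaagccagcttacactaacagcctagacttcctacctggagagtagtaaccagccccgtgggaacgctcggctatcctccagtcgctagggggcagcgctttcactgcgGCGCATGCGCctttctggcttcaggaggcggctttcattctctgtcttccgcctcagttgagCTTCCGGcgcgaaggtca
Atp5j: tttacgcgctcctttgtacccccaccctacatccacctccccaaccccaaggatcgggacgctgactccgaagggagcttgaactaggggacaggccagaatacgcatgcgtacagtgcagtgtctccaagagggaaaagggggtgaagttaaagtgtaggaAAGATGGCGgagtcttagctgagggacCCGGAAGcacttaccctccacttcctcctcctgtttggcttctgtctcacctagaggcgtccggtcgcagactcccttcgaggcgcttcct
Cox6a1 and Atp5k each held the NRF1 letters, at -162 to -153 and -50 to -41 counted from 0 at the start base, and the GABPA letters on the opposite strand. Atp5j held the YY1 letters at -88 to -80 and the GABPA letters at -61 to -55. None of the windows of Atp5b, Ndufa6 and Ndufb10 held any of the 3 motifs, which says only that these letters are not there.

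The same search was run over every RefSeq promoter window of 250 bases before to 50 after a start, and 74 of the 94 genes had at least 1 window. The NRF1 letters were in windows of 10 of the 74 genes (13.5%), against 457 of 17492 protein-coding genes (2.61%) and 1.75% of all 32851 windows. The GABPA letters were in 18 genes (24.3%), against 12.9% of coding genes and 8.86% of windows. The YY1 letters were in 8 genes (10.8%), against 2.14% and 1.40%. Any of the 3 was found for 30 genes (40.5%), against 16.6% of coding genes. CCAAT or its reverse was about as common in the set (44.6%) as among coding genes (42.3%), and TATAAA was found for 9.5%, against 14.8%. The NRF1 letters and their reverse overlap in a palindrome, as in Cox6a1 and Atp5k, and a gene was counted once. The NRF1 and YY1 letters were shortened by 1 base after a first search, so their shares are not those of letters fixed beforehand. A match of letters is a description, not a binding site.

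These transcripts were abundant and short. Their median level among the 88 genes that passed the filter on low counts was 198.9 TPM, against 15.1 TPM for all 14652 genes that passed, and their median effective length was 523 bases, against 2390 bases. Of the 94 genes, 68 averaged over 100 TPM, 28 stood among the 500 highest genes and 8 averaged under 10 TPM. Atp5b, the catalytic beta subunit of ATP synthase, was the highest at a mean of 1343 TPM over the 6 cultures. Atp5g3, 1 of 3 genes for the c subunit of the ATP synthase rotor, followed at 806 TPM. Cox6a1 (719 TPM), Cox8a and Cox4i1 (711 TPM each) came next, and the ranges of these 3 overlapped. Complex I transcripts were lower: its highest members were Ndufab1, the mitochondrial acyl carrier protein, at 306 TPM and the accessory subunit Ndufa2 at 293 TPM. The assembly factors of complex I, which act during building and are not part of the finished complex, averaged between 11.6 TPM (Ndufaf3) and 51.4 TPM (Ndufaf2).

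**Figure D1:**
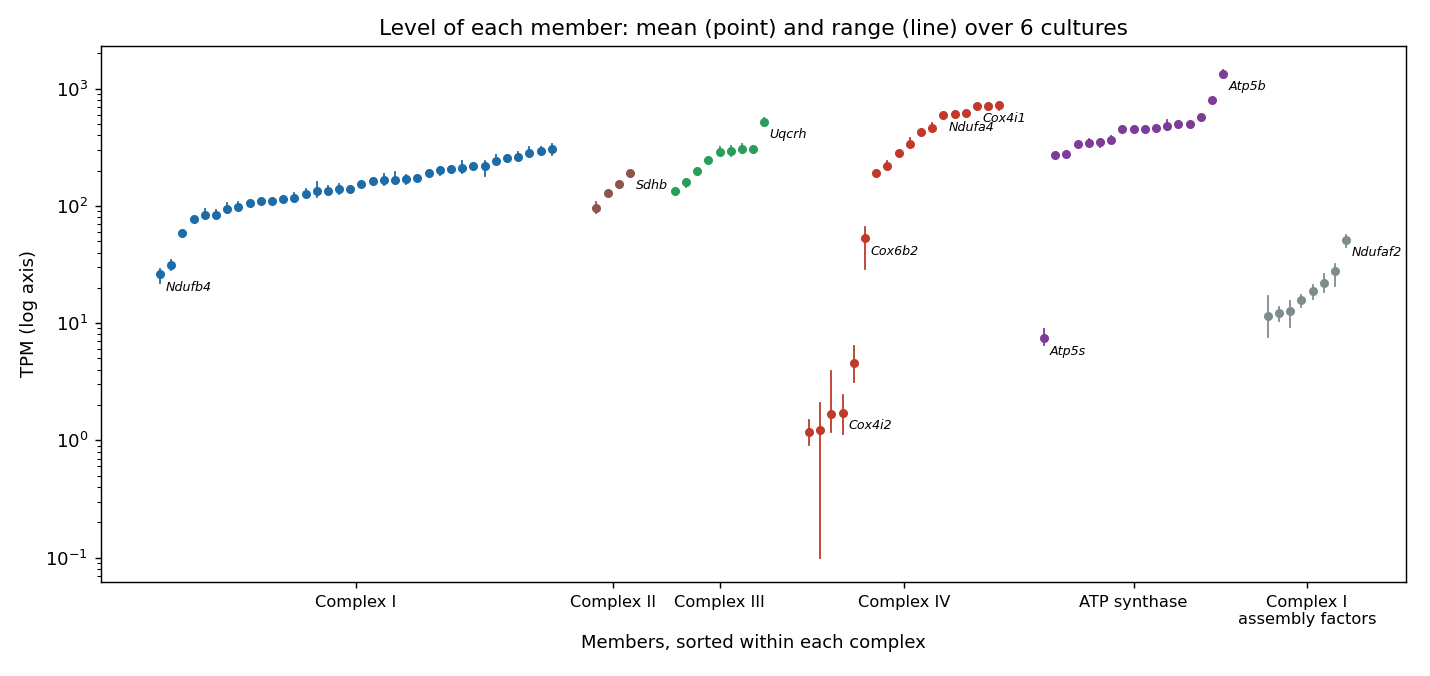
Level of each gene in TPM (log axis), sorted within each complex; the point is the mean and the line the range over the 6 cultures, drawn over cultures with a value above 0. Most subunits lie between 100 TPM and the 1343 TPM of Atp5b, the restricted isoforms of complex IV and Atp5s lie far below, and Cox7b2 and Cox8c, at 0, are not drawn.

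Added up over all 94 genes, the level was 22800, 22150 and 22530 TPM in heterozygous cultures 11, 15 and 18, against 22950, 23200 and 23050 TPM in wild-type cultures 10, 12 and 16. That is 2.21% to 2.28% of all TPM in heterozygous and 2.30% to 2.32% in wild-type cultures. Every heterozygous sum lay below every wild-type sum, with means of 22490 ± 328 TPM in heterozygous and 23070 ± 126 TPM in wild-type cultures (SD, n = 3 each), a difference of -2.50%. The direction depended on the unit: summed CPM was 1.19% higher in heterozygous cultures, with overlapping groups. Complex I had the largest of the 6 differences in TPM, at 5668, 5365 and 5536 TPM in the heterozygous cultures, against 5755, 5887 and 5771 TPM in the wild-type cultures (-4.84%). The groups did not overlap in TPM, but in CPM, where the difference was -2.42%, they did. Sums of complexes II, III, IV and ATP synthase and of the assembly factors overlapped between genotypes in TPM, with differences between -2.90% and -0.655%. In CPM the sum was 4.41% higher in heterozygous cultures for ATP synthase, 1.09% higher for complex III and 0.156% higher for complex II, and stayed lower for complex IV (-1.44%) and the assembly factors (-2.11%).

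**Figure D2:**
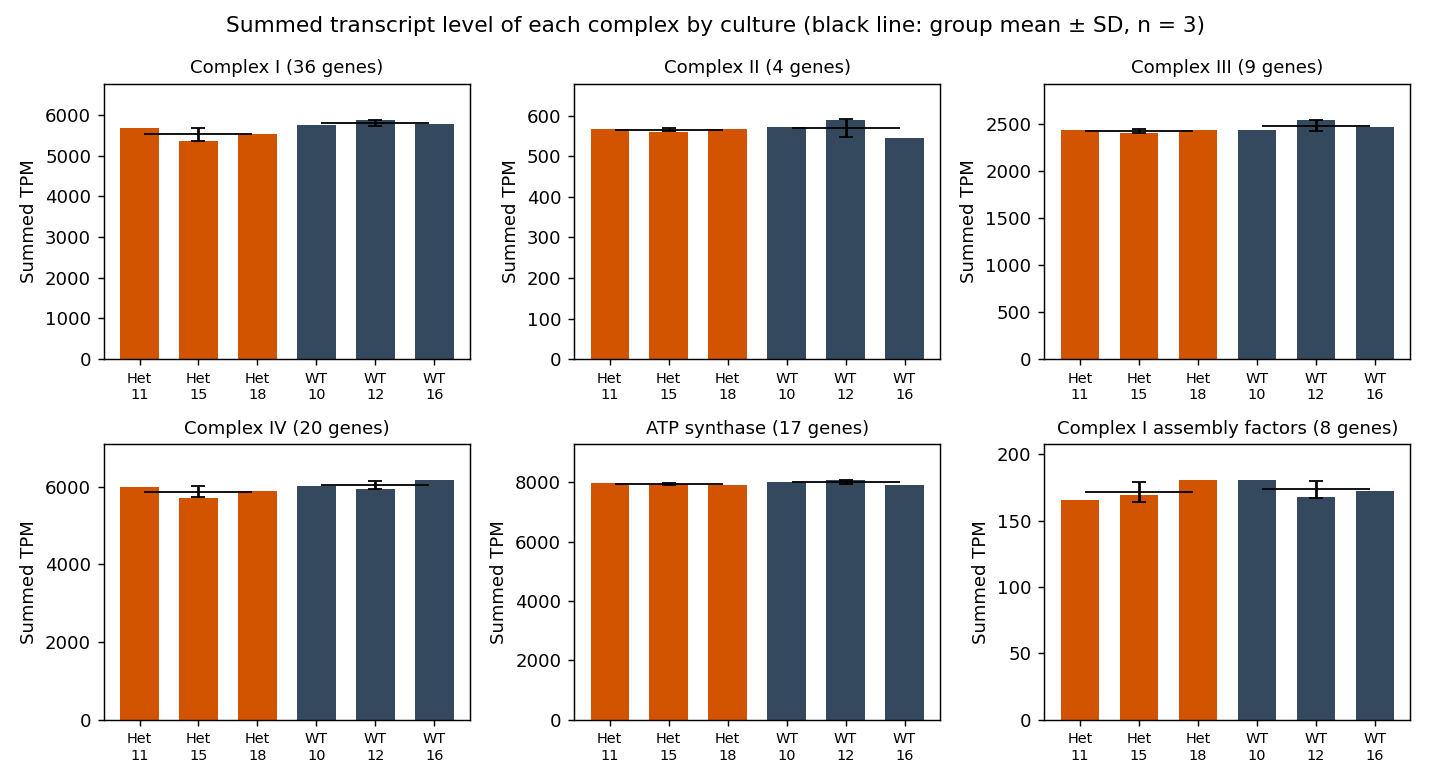
Summed TPM of each complex in every culture, heterozygous (orange) left of wild-type (blue), with the group mean ± SD (n = 3) in black and axes that start at 0. The heterozygous bars of complex I, 5365 to 5668 TPM, all lie below the wild-type bars, 5755 to 5887 TPM, while the groups of the other 5 panels overlap.

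Gene by gene, 0 of the 88 genes tested passed an adjusted p of 0.05 in edgeR, where 0.00683% of all genes did (1 of 14652, Lztr1). DESeq2 also called 0 of the 88, against 0.764% of all genes. At an unadjusted p under 0.05, edgeR gave 3 of the 88 (3.41%), Atp5b with a higher mean in heterozygous cultures and Ndufa6 and Ndufb10 with a lower one, against 12.2% of all genes, 5.56% higher and 6.65% lower. By DESeq2, 1 of the 88 had an unadjusted p under 0.05, against 8.94% of all genes. The genotypes did not overlap in CPM for 18 of the 88 (20.5%), 6 higher and 12 lower, against 17.7% of all genes, 7.75% higher and 9.97% lower. The shares called or at an unadjusted p under 0.05 lay below the background. The share without overlap lay a little above it, above for genes with a lower mean and below for genes with a higher mean.

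The estimates were small and their intervals narrow. The fitted log2 difference was positive for 35 genes and negative for 53, with a median of -0.02 (all genes tested -0.002), and ran from -0.44 for Ndufaf3 to 0.17 for Atp5b. No estimate reached 1.5-fold. For 83 of the 88 genes (94.3%) the whole 95% interval lay within 1.5-fold in either direction, which was so for 66.4% of all genes tested. These genes were also measured more precisely, and the median SE of the log2 difference was 0.06 for these genes and 0.11 for all genes. All 49 genes of complexes I, II and III were among the 83. The exceptions were Cox6a2, Cox6b2, Atp5s, Ndufaf3 and Ndufaf6. The 6 genes too low to test were Cox4i2, Cox7a1, Cox7b2, Cox8b, Cox8c and Ndufa4l2.

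**Figure D3:**
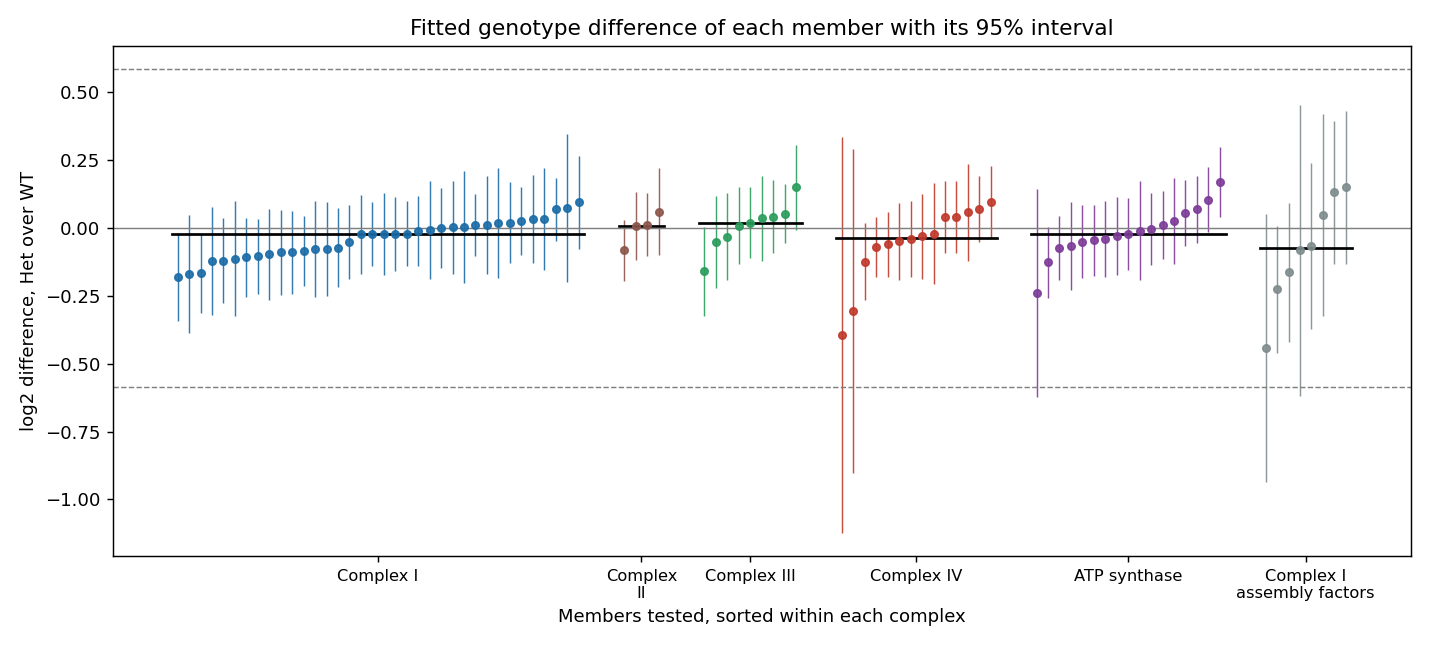
Fitted log2 difference, heterozygous over wild-type, of each of the 88 genes tested, sorted within each complex, with its 95% interval; black bars are medians and dashed lines mark 1.5-fold. Estimates run from -0.44 to 0.17, and only the intervals of 5 low or variable genes cross a dashed line.

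In complex I, the NADH-ubiquinone oxidoreductase, 12 genes had a higher and 24 a lower mean in heterozygous cultures, with a median log2 difference of -0.02, and 0 of 36 passed the adjusted threshold. The 7 core subunits, which carry the flavin and iron-sulfur centres, had a median of -0.02 and ran from -0.11 (Ndufs8) to 0.07 (Ndufs1). The 29 accessory subunits had a median of -0.05, with 10 higher and 19 lower. Ndufa6, an accessory LYR-motif subunit at chr15:82350140-82354322 (mm10), stood at 27.5, 27.9 and 26.5 CPM in heterozygous cultures 11, 15 and 18, against 31.9, 29.6 and 31.4 CPM in wild-type cultures 10, 12 and 16. All heterozygous values lay below all wild-type values, and the log2 difference was -0.18 (SE 0.07, 95% interval -0.34 to -0.02, adjusted p 0.368 by edgeR). Ndufb10, an accessory subunit of the membrane arm at chr17:24722060-24724478, stood at 54.0, 50.6 and 50.3 CPM in the heterozygous cultures, against 55.9, 57.1 and 61.2 CPM in the wild-type cultures. The groups were again apart, by -0.17 (SE 0.06, adjusted p 0.368). Among cultures numbered 10 to 12 and among those numbered 15 to 18, Ndufa6 differed by -0.16 and -0.21 and Ndufb10 by -0.07 and -0.28. Ndufv3, the small accessory subunit of the NADH-binding module, had a similar estimate of -0.17 (SE 0.09) but its groups overlapped, at 118.0 to 130.7 TPM in heterozygous and 126.6 to 160.8 TPM in wild-type cultures. Of the most abundant members, Ndufab1 differed by 0.01 (SE 0.08) and Ndufa2 by -0.12 (SE 0.07).

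Ndufb4 of complex I is uncertain. The gene averaged 26.0 TPM, while the annotated processed pseudogene Ndufb4c at chr15:73809507-73809896 averaged 213.5 TPM. Ndufb4 took 11.7% of the TPM of the pair in heterozygous and 10.1% in wild-type cultures, and the sum of both was 220.6 to 240.6 TPM in heterozygous against 239.8 to 268.3 TPM in wild-type cultures. Which of the pair gave these reads was not tested. Of the other 10 pseudogenes and copies named for these families, the highest, Ndufab1-ps, averaged 0.882 TPM. Counts were not whole, a sign of reads shared between genes, for 19 of the 94 genes, and exons of 32 overlapped those of another gene, 29 of them on the opposite strand. No label states whether the counting used strand. Atp5b, Ndufa6, Ndufb10, Cox6a1, Uqcr10 and Ndufaf7 had whole counts and no such overlap, whereas Atp5h, Atp5f1 and Cox7a2l had counts that were not whole in all 6 cultures, Ndufaf3 overlapped Impdh2 and Atp5j overlapped Gabpa.

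The 8 complex I assembly factors had a median log2 difference of -0.07, 3 higher and 5 lower, with wider errors than the subunits (median SE 0.13). Ndufaf7, a mitochondrial arginine methyltransferase, stood at 15.2, 14.9 and 13.3 CPM in heterozygous cultures 11, 15 and 18, against 16.2, 16.4 and 18.3 CPM in wild-type cultures 10, 12 and 16, a difference of -0.23 (SE 0.10, adjusted p 0.427 by edgeR) with groups apart. Ndufaf3 had the lowest estimate of all 88 genes, -0.44 (SE 0.21, adjusted p 0.447), at 8.93, 12.6 and 7.55 TPM in the heterozygous cultures and 17.0, 14.7 and 8.81 TPM in the wild-type cultures. Its groups overlapped, and wild-type culture 16 stood within the heterozygous range. Ndufaf1, which acts in assembly of the membrane arm, differed by -0.16 (SE 0.11). Ndufaf2 and Ndufaf8, the most abundant of the 8, differed by 0.13 (SE 0.11) and 0.05 (SE 0.16).

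Complex II, succinate dehydrogenase, which also belongs to the citrate cycle and has no subunit encoded by mitochondrial DNA, had fitted differences between -0.08 and 0.06. The flavoprotein Sdha averaged 127 ± 3.13 TPM in heterozygous and 130 ± 6.08 TPM in wild-type cultures (SD, n = 3 each), and its log2 difference in CPM was 0.01 (SE 0.05). The iron-sulfur subunit Sdhb averaged 189 ± 5.32 TPM in heterozygous and 191 ± 12.1 TPM in wild-type cultures, with a log2 difference of 0.01 (SE 0.05). Both intervals lay between -0.12 and 0.13. Sdhc, a membrane anchor, stood at 88.1, 87.6 and 88.6 CPM in heterozygous cultures 11, 15 and 18, against 93.9, 95.2 and 90.5 CPM in wild-type cultures 10, 12 and 16. Its groups were apart in CPM (-0.08, SE 0.05, adjusted p 0.519 by edgeR) and overlapped in TPM. The other anchor, Sdhd, differed by 0.06 (SE 0.07) with overlapping groups.

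In complex III, the cytochrome bc1 complex, 6 of 9 genes had a higher mean in heterozygous cultures and the median was 0.02. Its small subunits had differences of both signs. Uqcrb, which contacts the ubiquinone site, stood at 62.5, 70.4 and 62.4 CPM in heterozygous cultures 11, 15 and 18, against 56.7, 59.0 and 60.5 CPM in wild-type cultures 10, 12 and 16 (0.15, SE 0.07, adjusted p 0.430 by edgeR). Uqcr10, another of the small subunits, stood at 42.3, 40.1 and 38.2 CPM in the heterozygous cultures, against 44.1, 43.1 and 48.0 CPM in the wild-type cultures (-0.16, SE 0.07, adjusted p 0.421). Both pairs of groups were apart, in opposite directions. The core protein Uqcrc2 was apart by less, 0.05 (SE 0.05). The catalytic subunits Cyc1, cytochrome c1, and Uqcrfs1, the Rieske protein, differed by 0.04 and 0.01 (SE 0.06 each), and the abundant hinge protein Uqcrh by -0.05 (SE 0.07) and Uqcrq by -0.03 (SE 0.07).

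In complex IV, cytochrome c oxidase, 14 of 20 genes were tested, 5 with a higher and 9 with a lower mean in heterozygous cultures and a median of -0.04. Cox6a1, its most abundant transcript by the mean over all 6 cultures though not among the heterozygous cultures, stood at 715, 669 and 658 TPM in heterozygous cultures 11, 15 and 18, against 756, 753 and 762 TPM in wild-type cultures 10, 12 and 16. The groups were apart in TPM and overlapped in CPM, where the log2 difference was -0.12 (SE 0.06, adjusted p 0.453 by edgeR). Cox7a2l, studied for a part in supercomplexes of complexes III and IV, was apart in CPM at -0.07 (SE 0.05). Its part in supercomplexes in this strain was not tested. The widely expressed Cox7a2 and Cox7b differed by 0.10 (SE 0.06) and 0.07 (SE 0.05), Cox6b1 and Ndufa4 by 0.04 each (SE 0.06), and Cox8a and Cox4i1 by -0.06 (SE 0.05) and -0.05 (SE 0.06), all on the log2 scale and with groups that overlapped in CPM. In TPM the groups of these 6 genes overlapped as well, except for Cox7a2 and Cox8a. Cox7a2 stood at 282.8 to 295.6 TPM in heterozygous and 267.9 to 279.3 TPM in wild-type cultures, and Cox8a at 668.7 to 704.3 TPM in heterozygous and 727.2 to 737.4 TPM in wild-type cultures.

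The widely expressed isoform of each complex IV pair made up nearly all of its transcript in both genotypes. Cox4i2, known from lung and from hypoxia, gave 14, 6 and 4 counts in heterozygous cultures 11, 15 and 18 and 11, 7 and 5 counts in wild-type cultures 10, 12 and 16, which is 0.213% of the Cox4 pair in heterozygous and 0.268% in wild-type cultures. Cox7a1 and Cox8b, known from heart and skeletal muscle, had at most 5 counts in any culture, Ndufa4l2 had at most 13, and Cox7b2 and Cox8c had 0 in all 6. A count of 0 allows a level of up to 3 counts, which equalled 0.138 to 0.275 CPM. Cox6a2, the heart and muscle form, stood at 5.03, 3.30 and 3.13 TPM in the heterozygous cultures, against 6.39, 5.39 and 3.94 TPM in the wild-type cultures. That is 0.554% of the Cox6a pair in heterozygous and 0.688% in wild-type cultures. The summed muscle markers, of which 9 of 10 were high enough to test, were 695.5, 492.5 and 637.2 TPM in the same heterozygous cultures and 795.1, 757.5 and 505.8 TPM in the same wild-type cultures, and their part in Cox6a2 was not tested. In bulk RNA, fewer cells of a type and less RNA per cell cannot be told apart. Brown adipocyte markers summed to 3.60 to 6.13 TPM in heterozygous and 4.51 to 5.90 TPM in wild-type cultures, with Adipoq at 0.

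Cox6b2, known from testis, was the exception, at 6.86% of the Cox6b pair in heterozygous and 8.80% in wild-type cultures. It stood at 66.3, 28.8 and 45.0 TPM in heterozygous cultures 11, 15 and 18, against 55.2, 58.0 and 63.0 TPM in wild-type cultures 10, 12 and 16. The heterozygous cultures spanned the wild-type range on both sides, and the log2 difference of -0.30 (SE 0.26, adjusted p 0.653 by edgeR) had an interval from -0.90 to 0.29. Its size turned on single cultures: it was -0.67 (adjusted p 0.320) without heterozygous culture 11 and -0.07 (adjusted p 0.937) without heterozygous culture 15. Among cultures numbered 10 to 12 the difference was 0.26 and among those numbered 15 to 18 it was -0.84.

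In ATP synthase 6 genes had a higher and 11 a lower mean in heterozygous cultures, with a median of -0.02, and the 2 highest estimates belonged to the F1 part. Atp5b, at chr10:128083273-128090391 (mm10), stood at 1329, 1374 and 1344 CPM in heterozygous cultures 11, 15 and 18, against 1171, 1171 and 1253 CPM in wild-type cultures 10, 12 and 16. All heterozygous values lay above all wild-type values, in TPM as well, and the log2 difference of 0.17 (SE 0.06, 95% interval 0.04 to 0.30) had an unadjusted p of 0.0157 and an adjusted p of 0.326 by edgeR. It passed the adjusted threshold only with wild-type culture 16 left out (0.21, adjusted p 0.0315), a setting in which 5.93% of all genes passed. Among cultures 10 to 12 the difference was 0.18, and among cultures 15 to 18 it was 0.12. The gamma subunit Atp5c1, the central shaft, was apart in the same direction by 0.10 (SE 0.05, adjusted p 0.455), and the alpha subunit Atp5a1 differed by 0.06 (SE 0.05) with overlap. The delta and epsilon subunits Atp5d and Atp5e differed by -0.07 (SE 0.07) and -0.05 (SE 0.06). The 5 F1 genes summed to 3184, 3177 and 3133 TPM in the heterozygous cultures and 3077, 3092 and 2961 TPM in the wild-type cultures, 3.99% higher with groups apart. Atp5b gave the largest share of that sum and all of its difference. Its means were 1412 TPM in heterozygous and 1274 TPM in wild-type cultures, further apart than the means of the sum, 3165 and 3043 TPM. The sum therefore does not show a higher level of the F1 genes as a group.

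The peripheral stalk had differences of both signs. Atp5h, subunit d of the peripheral stalk, stood at 115.6, 114.3 and 107.9 CPM in heterozygous cultures 11, 15 and 18, against 117.8, 122.3 and 128.7 CPM in wild-type cultures 10, 12 and 16, apart by -0.13 (SE 0.06, adjusted p 0.430 by edgeR). Atp5f1, subunit b of the same stalk, was apart the other way by 0.07 (SE 0.05). The 4 small membrane subunits all had negative estimates, from -0.05 to -0.01. Atp5g1, Atp5g2 and Atp5g3 encode the same mature c subunit with different import sequences. Atp5g1 contributed 21.8% to 24.6% of the c subunit transcript in heterozygous and 21.1% to 23.0% in wild-type cultures, and Atp5g3 contributed a mean of 49.6% in heterozygous and 49.7% in wild-type cultures. Their sum was 1596 ± 25.7 TPM in heterozygous and 1651 ± 18.1 TPM in wild-type cultures (SD, n = 3 each). For Atp5s, a factor related to the coupling of ATP synthase and the lowest of this group, the direction depended on the unit. It stood at 4.15, 3.75 and 4.08 CPM in the heterozygous cultures and 4.37, 5.04 and 4.76 CPM in the wild-type cultures, but its mean TPM was 13.1% higher in heterozygous cultures. Its estimated effective length was 757, 728 and 1022 bases in the heterozygous cultures and 1031, 1224 and 1075 bases in the wild-type cultures.

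**Figure D4:**
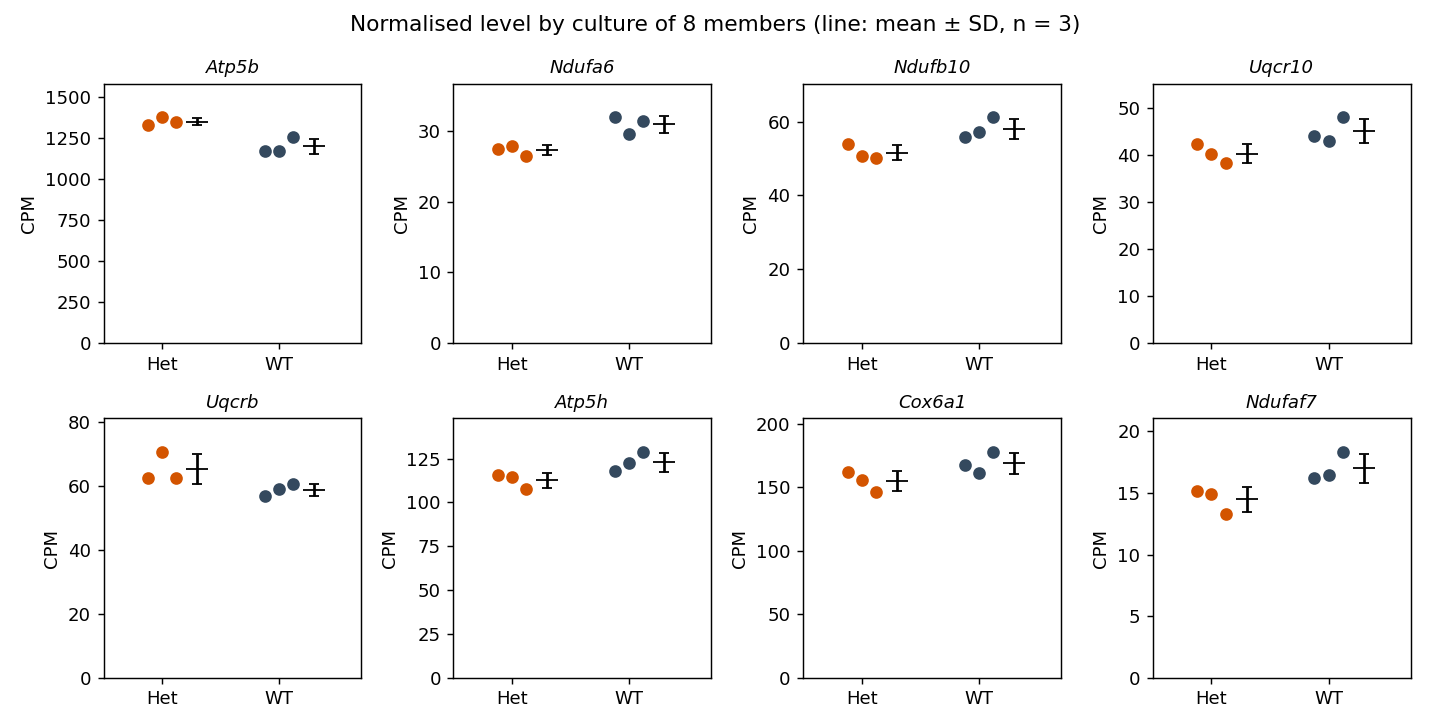
CPM in each culture of 8 genes, heterozygous (orange) left of wild-type (blue), with the mean ± SD of 3 cultures beside the points and axes that start at 0. The groups are apart in every panel but that of Cox6a1, where heterozygous culture 11 (162.0 CPM) lies above wild-type culture 12 (161.4 CPM). These genes have small unadjusted p by edgeR, from 0.0157 (Atp5b) to 0.0767 (Cox6a1), and are not typical of the set. Groups were apart for 20.5% of the 88 genes tested and 17.7% of all genes.

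In log2 CPM, the genes as a whole varied more among the wild-type cultures than between the genotype means. In summed TPM the reverse held, with wild-type cultures at 22950 to 23200 TPM and genotype means of 22490 TPM (heterozygous) and 23070 TPM (wild-type). Averaged over the 88 genes, log2 CPM relative to the wild-type mean was -0.02, -0.03 and -0.06 in heterozygous cultures 11, 15 and 18, and -0.01, -0.03 and 0.05 in wild-type cultures 10, 12 and 16. Wild-type culture 16 stood highest for all 5 complexes among wild-type cultures. The 771 genes of under 600 bases, 51 of them members, were high in that culture too, with a median of 0.09, against -0.02 and -0.07 in wild-type cultures 10 and 12. With the trend with transcript length removed, the median genotype difference was 0.006 for the members and 0.011 for all genes tested. Among cultures numbered 10 to 12 the median difference of the members was 0.01, and among those numbered 15 to 18, which include wild-type culture 16, it was -0.09. The labels do not name these number runs as batches. Heterozygous culture 11 and wild-type culture 16 have later record numbers than cultures 10, 12, 15 and 18, a split called the registration block here. No label names that split a batch either. The median difference of the members was -0.005 among cultures 10, 12, 15 and 18, and -0.056 between cultures 11 and 16. By complex, the median difference was lower among cultures 15 to 18 than among cultures 10 to 12 in complexes I, III and IV and in ATP synthase. Each run holds a single culture of 1 genotype, and the later pair holds a single culture of each, so these values have no test.

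**Figure D5:**
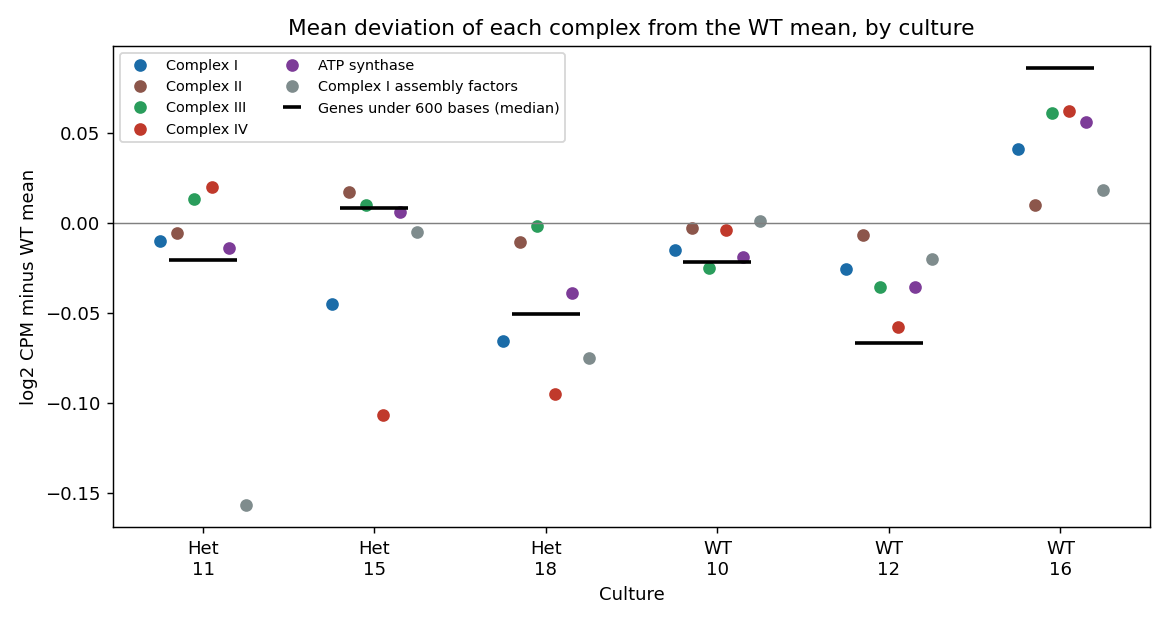
Mean log2 CPM of the genes of each complex in every culture, relative to the wild-type mean, with the median of the 771 genes under 600 bases as a black line; heterozygous cultures are on the left. Wild-type culture 16 lies above 0 for every complex, next to a short-gene median of 0.09, and the heterozygous cultures lie mostly between -0.11 and 0.02.

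Genes around the complexes were read from lists of known function. The 13 subunits encoded by mitochondrial DNA had 11 estimates above and 2 below 0, with a median of 0.17, against -0.02 for the nuclear subunits, and 0 were called by edgeR and 1 by DESeq2, where 0.764% of all genes were. At an unadjusted p under 0.05, edgeR gave 3 higher and 1 lower (30.8% of the 13, against 12.2% of all genes). Their summed level was 33700 ± 1530 TPM in heterozygous and 30690 ± 2760 TPM in wild-type cultures (SD, n = 3 each), with overlapping groups. In CPM the groups were apart, at 15960, 15150 and 14770 CPM in heterozygous cultures 11, 15 and 18, against 14600, 12050 and 14630 CPM in wild-type cultures 10, 12 and 16 (11.1% higher). The 2 sets were not tested against each other. Of the complex IV subunits among them, mt-Co2 averaged 528 ± 67.8 TPM in heterozygous and 300.1 ± 37.3 TPM in wild-type cultures (0.84, SE 0.11, adjusted p 0.305 by edgeR and 2.08e-08 by DESeq2), and mt-Co3 had a lower mean (-0.29, SE 0.10, adjusted p 0.329 by edgeR). The complex I subunit mt-Nd5 differed by 0.30 (SE 0.11). Sharing of reads with other genes was examined for the nuclear members only and was not tested for these 13 genes.

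Assembly factors outside the name rule gave 0 calls by edgeR and DESeq2. At an unadjusted p under 0.05, edgeR gave 0 of 19 for complex IV and 1 of 8 for complex I (Dmac1). It gave 0 of 10 for complexes II and III and 1 of 4 for ATP synthase (Tmem70), against 12.2% of all genes. The 19 for complex IV had 8 higher and 11 lower means and a median of -0.02, with Cox14 at -0.25 (SE 0.11), Cox10, a heme farnesyltransferase, at 0.14 (SE 0.09) and Coa5 at 0.08 (SE 0.06). The 8 further factors for complex I had 2 higher and 6 lower, with a median of -0.09. Among them were Dmac1 at -0.27 (SE 0.10, adjusted p 0.365 by edgeR), Tmem126b at -0.16 (SE 0.10) and Acad9 at 0.08 (SE 0.07). The 10 for complexes II and III had 2 higher and 8 lower, also with a median of -0.09, and Uqcc3 was at -0.25 (SE 0.12), Sdhaf1 at -0.19 (SE 0.15) and Uqcc2 at -0.11 (SE 0.07). Of 4 genes for ATP synthase, Tmem70, which helps assemble the c ring, averaged 67.5 ± 4.88 TPM in heterozygous and 57.2 ± 3.92 TPM in wild-type cultures (0.26, SE 0.08, adjusted p 0.313), the inhibitor Atpif1 differed by -0.07 (SE 0.06) and Atpaf1 by -0.11 (SE 0.14).

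The 17 regulators of mitochondrial gene expression and the 13 citrate cycle enzymes gave 0 calls by edgeR and DESeq2. They gave 0 genes at an unadjusted p under 0.05 by edgeR, against 12.2% of all genes. The regulators had 11 higher and 6 lower means and a median of 0.04. Gabpa, whose product binds the GABPA letters above, averaged 30.6 ± 2.18 TPM in heterozygous and 27.9 ± 1.07 TPM in wild-type cultures (0.11, SE 0.06, adjusted p 0.471 by edgeR). Pprc1, a coactivator, differed by 0.10 (SE 0.06) and Tfb1m, which methylates mitochondrial ribosomal RNA, by -0.41 (SE 0.19). The enzymes had 8 higher and 5 lower means and a median of 0.03, with Idh3a at 0.27 (SE 0.12), Cs at 0.08 (SE 0.06) and Mdh2 at 0.07 (SE 0.06). Among 8 genes for carriers, porins and cytochrome c, 7 means were higher and the median was 0.05, with 0 calls by edgeR and 1 by DESeq2, against 0.764% of all genes. At an unadjusted p under 0.05 there were 2 of the 8 by edgeR, against 12.2% of all genes. Slc25a5, an ADP/ATP carrier that feeds ATP synthase, averaged 532 ± 16.8 TPM in heterozygous and 456 ± 18.5 TPM in wild-type cultures (0.24, SE 0.06, adjusted p 0.313 by edgeR and 0.0119 by DESeq2). Ucp2 differed by -0.38 (SE 0.09, adjusted p 0.313 by edgeR) and cytochrome c, Cycs, by 0.13 (SE 0.09).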

How the data were processed

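Messenger RNA libraries (TruSeq, per the labels' protocols) of 6 mouse embryonic fibroblast cultures were compared by genotype, 3 heterozygous against 3 wild-type. The submitters' processing notes name RSEM 1.3.1, DESeq2 and the build mm10. The aligner and annotation release were not given in the sources used here. RSEM expected counts, TPM and FPKM per gene were deposited by the authors, per the file headers, with effective lengths; the deposited FPKM values were summed only as a side check. Expected counts were rounded, and genes were kept by filterByExpr (14652 of 51826).

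Genotypes were compared with edgeR 4.0.16 (quasi-likelihood F test, TMM factors, no covariates) in R 4.3.3, with Benjamini-Hochberg adjustment over all genes tested and a threshold of 0.05. CPM were computed from library totals multiplied by TMM factors, and levels between genes use the deposited TPM. Limma 3.58.1 and DESeq2 1.42.0 served as alternatives. The NRF1 and YY1 letters were shortened by 1 base after a first search. The steps were tested on simulated counts. Symbols came from GENCODE by Ensembl number. The biological coefficient of variation was 11.3%. Floors and intervals of counts cover counting error only.

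The symbol rule for the members uses no measured value, but it and the lists were chosen with earlier results of these data known. Named genes were, per complex, the 2 highest by TPM and the 3 with the smallest p, all of complex II, all restricted isoforms with their partners, and up to 3 by p per list; Atp5a1, Atp5d, Atp5e, Atp5f1, Ndufs1, Ndufs8, Ndufv3, Cyc1, Uqcrfs1, Ndufb4 and Atp5s were added after their values were seen.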

Additional observations from a re-analysis of the deposited data

How the results depend on the processing

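No paired analysis was possible because the genotypes share no culture numbers. The number of genes called, 1, was 112 by DESeq2, 32 with no filter on low counts, 0 with effective length as an offset, and 0 to 896 with 1 culture left out, the highest without wild-type culture 16. Of the 88 members, 0 were called under every alternative except without wild-type culture 16, where Atp5b was called (0 to 1). Members with a higher mean at an unadjusted p under 0.05, 1 as reported, were 2 with relative log expression factors, with no filter, with limma on log2(TPM + 1) or log2(TPM + 0.1) and with the length offset. In these settings that was 2.17% or 2.27% of members, against 4.55% to 6.06% of all genes. There were 5 with the length trend removed (5.68% of members, against 5.93% of all genes). With 1 culture left out there were 0 to 8, the highest without wild-type culture 16 (9.09%, against 12.4% of all genes). Those with a lower mean, 2 as reported, were 0 by DESeq2, with no filter and with Y-linked expression as a term, against 4.29% to 5.42% of all genes. There were 7 with library totals only (7.95%, against 8.43% of all genes) and 10 by limma with either pseudocount (10.9%, against 7.10% and 7.04%). With the registration block as a term there were 5 (5.68%, against 6.37%). With 1 culture left out there were 0 to 3, the highest without heterozygous culture 11 (3.41%, against 7.12%). The causes were not tested.

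The median of complex II was 0.009 in the main fit and -0.015 with library totals only. It was -0.020 and -0.021 by limma and 0.040 with the length trend removed. The median over all genes tested moved too in these settings, from -0.002 to -0.026, -0.018, -0.019 and 0.011 in turn. With 1 culture left out the median of complex II ran from -0.002 to 0.025. That of the assembly factors was -0.138 with the Y-linked term and -0.133 to 0.039 with 1 culture left out. The medians of all members and of the other 4 complexes moved by less than the spread between cultures, but with 1 culture left out some changed sign: over all members they ran from -0.045 to 0.007, complex I from -0.044 to -0.008, complex III from -0.009 to 0.052, complex IV from -0.073 to 0.010 and ATP synthase from -0.050 to 0.016, each highest without wild-type culture 16 and, except in complex I, lowest without wild-type culture 12. Lztr1 kept its direction, at -0.919 (adjusted p 0.167) and -0.938 (0.168) by limma, -0.913 (0.0852) with the length offset and -1.059 to -0.973 with 1 culture left out (adjusted p up to 0.0759). In CPM the summed level differed by 1.19% over all members, -2.42% for complex I, 1.09% for complex III and 4.41% for ATP synthase. Among 986 alternatives for 58 single genes, 954 kept the direction and 32 changed sign, none of them called.

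Depth limits the 6 genes too low to test. Only 3 cultures per genotype, 1 of them set apart in short genes, limit all comparisons, and members with unresolved reads, Ndufb4 first, are uncertain.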
